A study of Bos taurus with 6 samples.

Results

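The genes of ER-associated degradation (ERAD) were followed in bovine blastocysts. The 36 genes were taken by their symbols, and 35 of them were listed among the 36075 genes of the deposited table, each under 1 Ensembl identifier. SVIP was not matched to a row and is not analysed here. Blastocysts from oocytes matured for 22 h in medium with 1e-07 mol/L melatonin (the MT-treated group) were compared to blastocysts from oocytes matured without melatonin (the control group), with 3 libraries in each group. Per the study's methods, the cumulus-oocyte complexes of both groups came from slaughterhouse ovaries of cattle and were fertilized and cultured to blastocysts in vitro, melatonin being present only during maturation. Each library pooled 3 blastocysts, and the 3 libraries of a group came from separate production runs. The methods state that complexes were pooled within a run, divided at random among the treatments and treated side by side. Whether libraries with the same replicate number came from the same run is not stated. The breed and age of the cows that gave the ovaries and the sex of the embryos are not given in the sources used here.

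ERAD removes misfolded proteins from the endoplasmic reticulum (ER). Mannosidases trim the glycans of a protein that fails to fold, lectins read the trimmed glycan, and a membrane ubiquitin ligase with its partners passes the protein into the cytosol and tags it with ubiquitin. The ATPase VCP then pulls the tagged protein out of the membrane with the help of cofactors, and further enzymes edit the ubiquitin chain, remove glycans and hand the protein to the proteasome. Several of these genes are known targets of the unfolded protein response, among them EDEM1, HERPUD1, DERL3, SEL1L and SYVN1.

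Levels were compared in TPM, a transcript abundance unit, which divides reads by gene length and library total, so that levels of different genes can be set side by side and each level is relative to the rest of its library. TPM keeps no read counts, so the depth behind each value is unknown. Fold changes and tests were computed on log2(TPM + 1) with limma, and a gene was called at a Benjamini-Hochberg adjusted p-value under 0.05 over the 11953 genes tested. In whole blastocysts, fewer cells of a type and less RNA per cell cannot be told apart.

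The libraries of the groups differed widely outside ERAD. Genes with a TPM above 0 numbered 8854 to 8953 in the control libraries and 14372 to 14408 in the MT-treated libraries. Lineage markers were checked as well, in data where 61.6% of all tested genes were called higher and 34.1% lower with MT. Of 13 listed trophectoderm markers, 8 were higher and 5 lower, with a summed level of 14747 to 15061 TPM in the control against 12829 to 13158 TPM in MT-treated blastocysts. CDX2 was listed at 0 in each control library and could only be higher. TFAP2A lay below 1 TPM in each MT-treated library, under the level for testing, and could only be lower. Of 9 inner cell mass markers, 4 were higher and 2 lower, with a summed level of 472 to 477 TPM against 452 to 454 TPM. Among the higher, NANOG and LIN28A were at 0 in each control library and SOX2 lay below 0.1 TPM there, so they could only be higher. Of 8 hypoblast markers, the 4 tested were all higher. GATA6, PDGFRA and RSPO3 of them lay below 1 TPM in each control library and could only be higher, PDGFRA and RSPO3 being listed at 0 there. The summed level was 204 to 208 TPM against 517 to 519.6 TPM, most of it FN1, with means of 206 and 461 TPM. GATA4 and FOXA2 were at 0 in all 6 libraries. The summed level of 13 markers of cumulus and granulosa cells was 17.2 to 19.3 TPM in the control and 15.1 to 17.1 TPM in MT-treated blastocysts, nearly all of it FSHR, the 1 gene of that list tested (called lower), while HAS2, PTX3 and FOXL2 were at 0. Of 14 maternal oocyte markers none reached the level for testing, and their summed level was 0 in each control library and 1.25 to 1.70 TPM in the MT-treated libraries, with GDF9 and ZP3 at 0 throughout. The part of these differences in the ERAD values was not tested.

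Of the 35 listed ERAD genes, 34 passed the filter of at least 1 TPM in at least 3 libraries. YOD1, a deubiquitinase that works with VCP, was listed at 0 in all 6 libraries. Of the 34 genes, 17 had a higher level with MT and 15 a lower one, where 61.6% of all tested genes were higher and 34.1% lower. A call by itself says little in these data, because 95.7% of all tested genes were called in one direction or the other. The groups did not overlap for 32 of the ERAD genes, against 96.1% of all tested genes. Where the fitted change also had to reach 2-fold, the counts were 13 ERAD genes higher and 8 lower, against 51.0% and 19.6% of all tested genes. The median log2 fold change was 0.10 over the ERAD genes and 1.12 over all tested genes.

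Of the 17 higher genes, 8 lay below 0.1 TPM in each control library and passed the filter only through their MT-treated values, so they could only be higher. Over all tested genes, 38.0% lay below 0.1 TPM in each control library, and 3.70% lay below it in each MT-treated library. No ERAD gene showed the second pattern. Over the 27 ERAD genes above 0 in all 6 libraries, 10 were higher and 15 lower, against 40.6% higher and 52.3% lower over the 6925 such genes of the table. The median log2 fold change was -0.40 over these ERAD genes and -0.19 over all such genes. DERL1 is 1 of the 10 and passed the filter only through its MT-treated values.

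**Figure D1:**
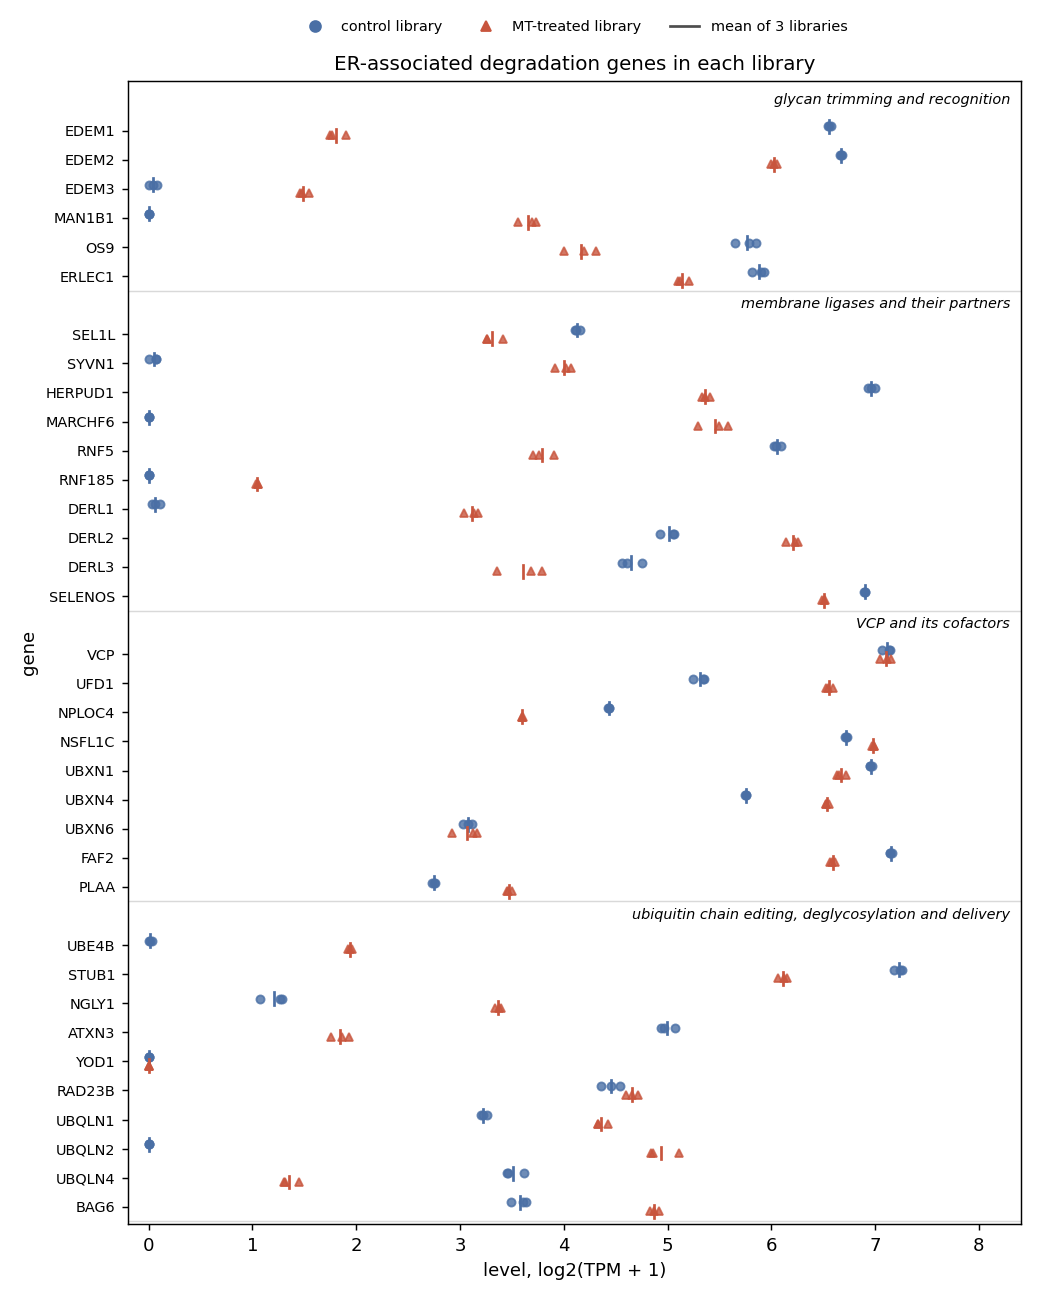
Level of each of the 35 listed ERAD genes in each library, as log2(TPM + 1) on the horizontal axis, with genes on the vertical axis grouped by role, circles for the 3 control libraries, triangles for the 3 MT-treated libraries and a short line for each mean. Replicates sit close together in nearly every gene, 8 genes lie near 0 in the control alone, and the groups overlap for VCP and UBXN6 among the genes that were tested.

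The ERAD genes were sorted into 4 roles, and the summed level differed most among the genes that trim and read glycans. These 6 genes together gave 305, 304 and 306 TPM in the control and 130, 134 and 131 TPM in MT-treated blastocysts. The 10 genes of the membrane ligases and their partners summed to 376 to 381 TPM in the control and 291 to 309 TPM with MT. The 9 listed genes of VCP and its cofactors went the other way by a small margin, from 627 to 635 TPM in the control to 663 to 680.1 TPM with MT. The 10 genes for chain editing, deglycosylation and delivery summed to 225 to 236 TPM in the control and 182 to 191 TPM with MT. The sum over all 35 genes was 1548 ± 10.3 TPM in the control and 1292 ± 20.3 TPM in MT-treated blastocysts (SD, n = 3 each). Over the 5988 genes of the table with at least 1 TPM in every library, the median log2 fold change was -0.27. Median centring removed a shift of -0.48 between the groups. The sums were taken as deposited only, so their direction on the other scales is not given.

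**Figure D2:**
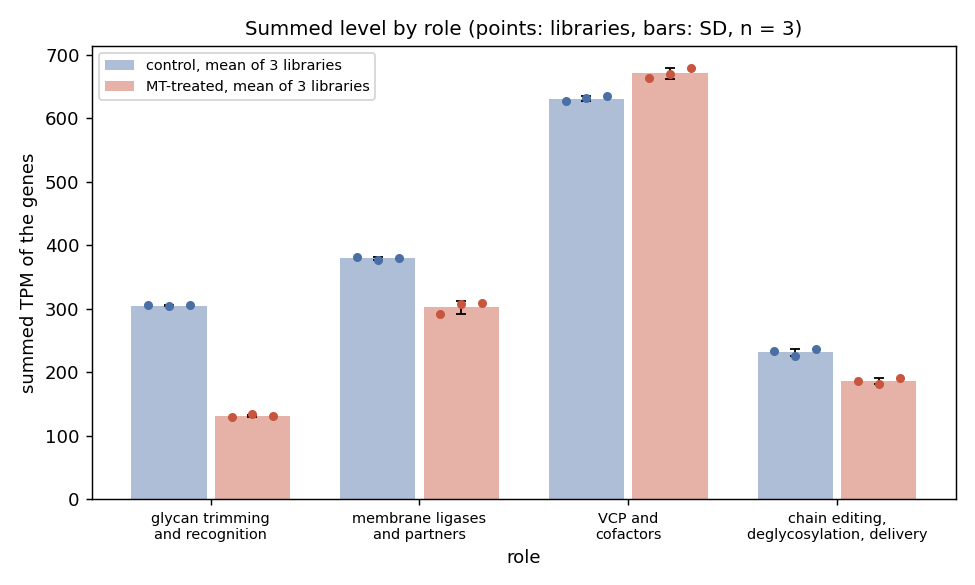
Summed TPM of the ERAD genes of each role on the vertical axis, with bars for the mean of 3 libraries, points for single libraries, error bars for the SD (n = 3), and control beside MT-treated for each role on the horizontal axis. The glycan genes fall from about 305 to 132 TPM, while VCP and its cofactors differ little.

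Among the glycan genes, 4 of 6 were lower, against 34.1% of all tested genes, and the 2 higher ones, EDEM3 and MAN1B1, lay below 0.1 TPM in each control library and could only be higher. EDEM1, a mannosidase-like protein that speeds the disposal of misfolded glycoproteins, had 92.2, 94.1 and 93.1 TPM in the control and 2.74, 2.40 and 2.35 TPM with MT. The groups were far apart, with a 37.3-fold lower mean TPM and the largest fall among the ERAD genes (log2 fold change -4.75, or -4.27 after centring libraries on a common median and -5.52 after quantile normalization, standard error 0.05, adjusted p = 1.46e-09 by limma). Its relative EDEM2, which makes the first cut that commits a glycoprotein to ERAD, had 100.4, 100.8 and 101 TPM against 64.0, 63.0 and 65.5 TPM. These groups were also apart, but by 1.57-fold only (log2 fold change -0.64, adjusted p = 2.71e-07 by limma). For EDEM2 the log2 fold change shrank to -0.17 after median centring and to -0.36 after quantile normalization. EDEM3, the remaining relative, had 0, 0.06 and 0.03 TPM against 1.78, 1.74 and 1.91 TPM, so it was a minor member of the family in either group. EDEM3 was called higher as deposited (adjusted p = 8.11e-08 by limma), but not after quantile normalization, where its log2 fold change was -0.32.

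MAN1B1, an ER mannosidase, was listed at 0 in each control library and had 10.8, 11.9 and 12.3 TPM with MT (adjusted p = 5.12e-09 by limma). The lectins that read the trimmed glycan were both lower. OS9 had 54.1, 49.3 and 56.7 TPM in the control and 17.3, 18.8 and 15.1 TPM with MT, a 3.13-fold lower mean (log2 fold change -1.59, standard error 0.09, adjusted p = 4.28e-06 by limma). ERLEC1, the second lectin, had 58.9, 59.9 and 55.1 TPM against 33.3, 36.0 and 33.7 TPM, a 1.69-fold lower mean (log2 fold change -0.74, or -0.26 after median centring and -0.46 after quantile normalization, adjusted p = 6.70e-06 by limma). The groups were apart for both lectins, as for 96.1% of all tested genes.

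Of the 10 genes of the membrane ligases and their partners, 5 were higher and 5 lower, against 61.6% and 34.1% of all tested genes. SYVN1, MARCHF6, RNF185 and DERL1 lay below 0.1 TPM in each control library and could only be higher. SYVN1, the central ubiquitin ligase of ERAD in the ER membrane, had 0, 0.05 and 0.05 TPM in the control and 14.1, 15.2 and 15.8 TPM in MT-treated blastocysts (adjusted p = 3.26e-09 by limma). SEL1L, the adaptor that holds SYVN1 in its complex, fell from 16.8, 16.4 and 16.2 TPM to 8.58, 9.65 and 8.58 TPM (log2 fold change -0.81, or -0.34 after median centring and -2.55 after quantile normalization, standard error 0.05, adjusted p = 7.57e-06 by limma). As listed, SYVN1 lay below SEL1L in the control and above it with MT. Of all tested genes, 38.0% lay below 0.1 TPM in each control library, as SYVN1 did. HERPUD1, a stress-induced scaffold of the same complex, had 127, 121 and 124 TPM against 40.0, 39.2 and 41.4 TPM. All 3 MT-treated values were near 40, a 3.08-fold lower mean (log2 fold change -1.60, standard error 0.03, adjusted p = 1.80e-08 by limma).

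Of the other membrane ligases, MARCHF6 and RNF185 were listed at 0 in each control library. MARCHF6, which works on proteins with faults in their cytosolic or membrane part, had 38.2, 44.0 and 46.8 TPM with MT, among the higher levels of the ligase genes (adjusted p = 4.65e-09 by limma). RNF185 had 1.07, 1.07 and 1.05 TPM with MT, just above the level required for testing. RNF5, a related ligase of the same RING type, had 67.1, 65.0 and 64.1 TPM in the control and 12.6, 12.0 and 14.0 TPM with MT (log2 fold change -2.26, or -1.78 after median centring and -3.22 after quantile normalization, standard error 0.06, adjusted p = 6.42e-08 by limma). RNF5 nevertheless remained the main transcript of the pair, with 92.3% ± 0.609 (SD, n = 3) of their summed TPM in MT-treated blastocysts.

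Of the derlins, membrane proteins through which substrates leave the ER, DERL2 was higher and DERL3 lower, and DERL1 could only be higher. DERL1 had 0.02, 0.08 and 0.04 TPM in the control and 8.02, 7.79 and 7.22 TPM with MT (adjusted p = 7.35e-09 by limma), and DERL1 was not called after quantile normalization (adjusted p = 0.958 by limma). DERL2 rose from 29.4, 32.5 and 32.1 TPM to 69.7, 75.4 and 73.8 TPM, a 2.33-fold higher mean (log2 fold change 1.19, adjusted p = 8.36e-07 by limma). DERL3 had 23.5, 22.7 and 26.0 TPM against 9.25, 12.8 and 11.9 TPM, and was 2.12-fold lower (log2 fold change -1.03, or -0.55 after median centring and -2.38 after quantile normalization, standard error 0.12, adjusted p = 0.000202 by limma). The groups were apart for all 3 derlins, as for 96.1% of all tested genes. DERL3 had the widest spread among the MT-treated libraries of any gene in the list, with a coefficient of variation of 16.4%. SELENOS, a selenoprotein that links VCP to the derlins, had 117, 119 and 119 TPM against 89.7, 90.6 and 88.6 TPM. This difference of 1.32-fold was called lower as deposited (log2 fold change -0.40, adjusted p = 1.16e-06 by limma) but was called higher, at 0.08, once libraries were centred on a common median.

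Shares within a family do not change when a whole library is multiplied by a factor, and they differed between the groups for the EDEM genes, the derlins and the ubiquilins. EDEM1 made up 48.0% ± 0.217 of the summed EDEM level in the control and 3.65% ± 0.320 in MT-treated blastocysts (SD, n = 3 each), with EDEM2 taking 52.0% and 93.7%. The summed level of the EDEM genes was 194 ± 1.31 TPM in the control and 68.5 ± 1.32 TPM with MT (SD, n = 3 each). DERL2 made up 56.5% ± 1.97 of the derlin level in the control and 79.4% ± 0.814 with MT (SD, n = 3 each), while DERL3 went from 43.4% to 12.3% and DERL1 from 0.0838% to 8.37%. The summed derlin level was 55.4 ± 2.64 TPM in the control and 91.9 ± 4.58 TPM with MT (SD, n = 3 each). The groups were apart for each of these shares and sums, which in an exact two-sided permutation test gives p = 0.1, the smallest p-value that 3 against 3 libraries allow. Among single genes, the groups were apart for 96.1% of all those tested. EDEM3 and DERL1, which enter these shares and sums, could only be higher.

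**Figure D3:**
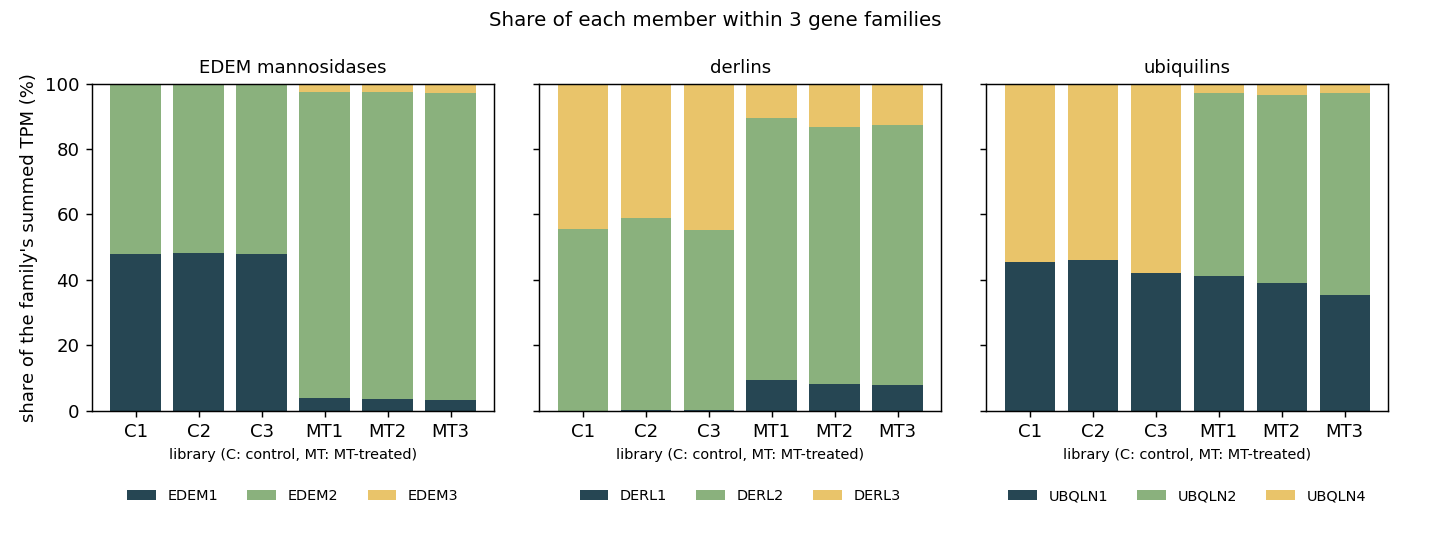
Share of each gene in the summed TPM of its family (vertical axis, percent) in each library (horizontal axis, C1 to C3 for control and MT1 to MT3 for MT-treated), for the EDEM genes, the derlins and the ubiquilins. EDEM1 shrinks from 48.0% to 3.65%, DERL2 grows from 56.5% to 79.4%, and UBQLN2 is absent from the control bars and makes up 58.3% of the MT-treated ones.

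VCP, the ATPase at the centre of the pathway, was among the most abundant ERAD genes and was not called. It had 133, 139.9 and 139.8 TPM in the control and 131, 138 and 141 TPM in MT-treated blastocysts, with overlapping groups (log2 fold change -0.01, standard error 0.04, adjusted p = 0.834 by limma). On other scales VCP was called higher, with a log2 fold change of 0.47 after median centring and 0.26 after quantile normalization. Median centring removed a shift of -0.48 between the groups in the median level of 5988 genes with at least 1 TPM in every library, while the median log2 fold change of the same genes was -0.27.

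Of the 8 listed cofactors around VCP, 4 were higher, 3 lower and UBXN6 not called, where 61.6% of all tested genes were higher and 34.1% lower. UFD1 and NPLOC4 form the heterodimer with which VCP grips ubiquitin chains. UFD1 had 39.9, 36.9 and 39.6 TPM in the control and 90.9, 92.3 and 95.8 TPM with MT (log2 fold change 1.24, standard error 0.04, adjusted p = 1.78e-07 by limma). NPLOC4 had 20.7, 20.4 and 20.7 TPM against 11.2, 11.1 and 11.1 TPM, with replicates nearly identical in either group (log2 fold change -0.83, or -0.36 after median centring and -2.35 after quantile normalization, standard error 0.03, adjusted p = 1.75e-07 by limma). The partners therefore went in opposite directions, and the TPM ratio of UFD1 to NPLOC4 was 1.88 ± 0.0639 in the control and 8.36 ± 0.261 in MT-treated blastocysts (SD, n = 3 each). The ratio of VCP to NPLOC4 went from 6.67 ± 0.234 to 12.3 ± 0.541, and that of VCP to UFD1 from 3.55 ± 0.231 to 1.47 ± 0.0271 (SD, n = 3 each).

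NSFL1C, a cofactor that directs VCP to membrane fusion, had 104, 105 and 105 TPM against 126, 126 and 124 TPM, a small rise (log2 fold change 0.26, adjusted p = 7.72e-06 by limma). UBXN4, which anchors VCP at the ER membrane, had 53.0, 53.0 and 52.5 TPM against 92.7, 91.2 and 91.4 TPM, a rise of 1.74-fold (adjusted p = 4.83e-08 by limma). The groups were apart for each, as for 96.1% of all tested genes. FAF2, another cofactor in the ER membrane, went the other way, from 142, 141 and 140.0 TPM to 95.0, 97.0 and 93.9 TPM, a 1.48-fold lower mean (adjusted p = 3.42e-07 by limma). The log2 fold change of FAF2 was -0.56 as deposited, -0.08 after median centring and -0.27 after quantile normalization. UBXN1, a cytosolic cofactor that also binds ubiquitin, had 122, 123 and 124 TPM against 99.4, 98.2 and 104 TPM. UBXN1 was called lower as deposited (log2 fold change -0.29, adjusted p = 6.50e-05 by limma), was called higher after median centring (0.19), and was not called after quantile normalization (-0.01).

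PLAA, a further ubiquitin-binding partner of VCP, had 5.73, 5.64 and 5.75 TPM against 10, 9.95 and 10.3 TPM. It was 1.77-fold higher as deposited (adjusted p = 9.54e-07 by limma), but its log2 fold change was -1.49, a called fall, after quantile normalization. UBXN6 had 7.16, 7.45 and 7.66 TPM against 7.71, 6.60 and 7.93 TPM, with overlapping groups (log2 fold change -0.00, adjusted p = 0.948 by limma). After quantile normalization UBXN6 was called lower, with a log2 fold change of -2.03, and after median centring it was called higher, at 0.47.

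Among the genes that edit ubiquitin chains, remove glycans and deliver substrates, 6 of the 9 tested were higher and 3 lower, against 61.6% and 34.1% of all tested genes, and UBE4B and UBQLN2 among the higher could only be so because the control lay below 0.1 TPM. STUB1, a ubiquitin ligase that works with chaperones, was the most abundant of these in the control, with 151, 144 and 152 TPM against 70.1, 66.0 and 68.6 TPM with MT. It was 2.18-fold lower, with all MT-treated values under all control values (log2 fold change -1.11, standard error 0.03, adjusted p = 1.28e-07 by limma). ATXN3, a deubiquitinase bound to VCP, had 32.6, 29.7 and 30.3 TPM against 2.80, 2.37 and 2.63 TPM. After EDEM1 this was the largest fall in the list, 11.9-fold in mean TPM (log2 fold change -3.15, or -2.67 after median centring and -4.00 after quantile normalization, standard error 0.06, adjusted p = 1.82e-08 by limma).

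UBE4B, which lengthens ubiquitin chains, had 0.01, 0.02 and 0 TPM in the control and 2.78, 2.83 and 2.88 TPM with MT (adjusted p = 4.79e-09 by limma). UBE4B was not called after quantile normalization (adjusted p = 0.999 by limma). NGLY1, the cytosolic enzyme that strips N-glycans from extracted proteins, had 1.41, 1.44 and 1.11 TPM against 9.38, 9.51 and 9.11 TPM. It was 7.07-fold higher in mean TPM (log2 fold change 2.16, standard error 0.06, adjusted p = 1.54e-07 by limma), while after quantile normalization it was called lower, at -0.69. BAG6, which keeps extracted proteins soluble, rose from 11.2, 10.3 and 11.4 TPM to 28.2, 27.5 and 29.3 TPM, a 2.58-fold higher mean with groups apart (log2 fold change 1.29, adjusted p = 4.48e-07 by limma).

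The shuttle proteins carry ubiquitinated substrates to the proteasome. RAD23B had 19.6, 20.9 and 22.3 TPM against 23.2, 25.2 and 24.2 TPM, and showed the smallest called difference of the list. The groups were apart by a narrow margin (log2 fold change 0.20, standard error 0.06, adjusted p = 0.0137 by limma), and without MT-treated replicate 2 RAD23B was no longer called (adjusted p = 0.0516 by limma). UBQLN1 rose from 8.31, 8.55 and 8.21 TPM to 20.4, 19.1 and 19.2 TPM, 2.34-fold in mean (log2 fold change 1.13, or 0.46 after quantile normalization, adjusted p = 2.89e-07 by limma). UBQLN2 was listed at 0 in each control library and had 27.6, 28.0 and 33.5 TPM with MT (adjusted p = 7.91e-09 by limma). UBQLN4 fell from 9.96, 10 and 11.3 TPM to 1.47, 1.72 and 1.49 TPM, 6.68-fold in mean (log2 fold change -2.16, or -1.68 after median centring and -3.19 after quantile normalization, standard error 0.07, adjusted p = 1.65e-07 by limma). The shares depend on UBQLN2, which was listed at 0 in the control, as were 33.8% of all tested genes. UBQLN4 made up 55.4% of the ubiquilin level in the control and 3.08% with MT, and UBQLN2 made up 0% in the control and 58.3% ± 3.16 (SD, n = 3) with MT. The summed ubiquilin level was 18.8 ± 0.645 TPM in the control and 50.8 ± 2.92 TPM with MT (SD, n = 3 each). This sum depends on UBQLN2 as well, which could only be higher and gave a mean of 29.7 TPM of it with MT.

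The calls were compared between scales. After median centring and after quantile normalization alike, 25 of the 32 called genes were called in the same direction as deposited, 12 higher and 13 lower, or 78.1% against 81.8% of all called genes. Of the 12, MAN1B1, MARCHF6, RNF185, SYVN1 and UBQLN2 lay below 0.1 TPM in each control library and could only be higher. Without the genes below that level, 20 of 24 ERAD genes kept their call and direction, 7 higher and 13 lower, or 83.3% against 72.9% of all such called genes. The 7 genes that did not keep their call or direction were EDEM3, DERL1, SELENOS, UBXN1, PLAA, UBE4B and NGLY1. Under median centring 21 of the 34 genes were higher and 13 lower, while quantile normalization gave 13 higher and 17 lower. The share of higher genes among the called was 53.1% as deposited, 61.8% after centring and 43.3% after quantile normalization, against 64.4%, 73.5% and 59.0% over all genes.

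**Figure D4:**
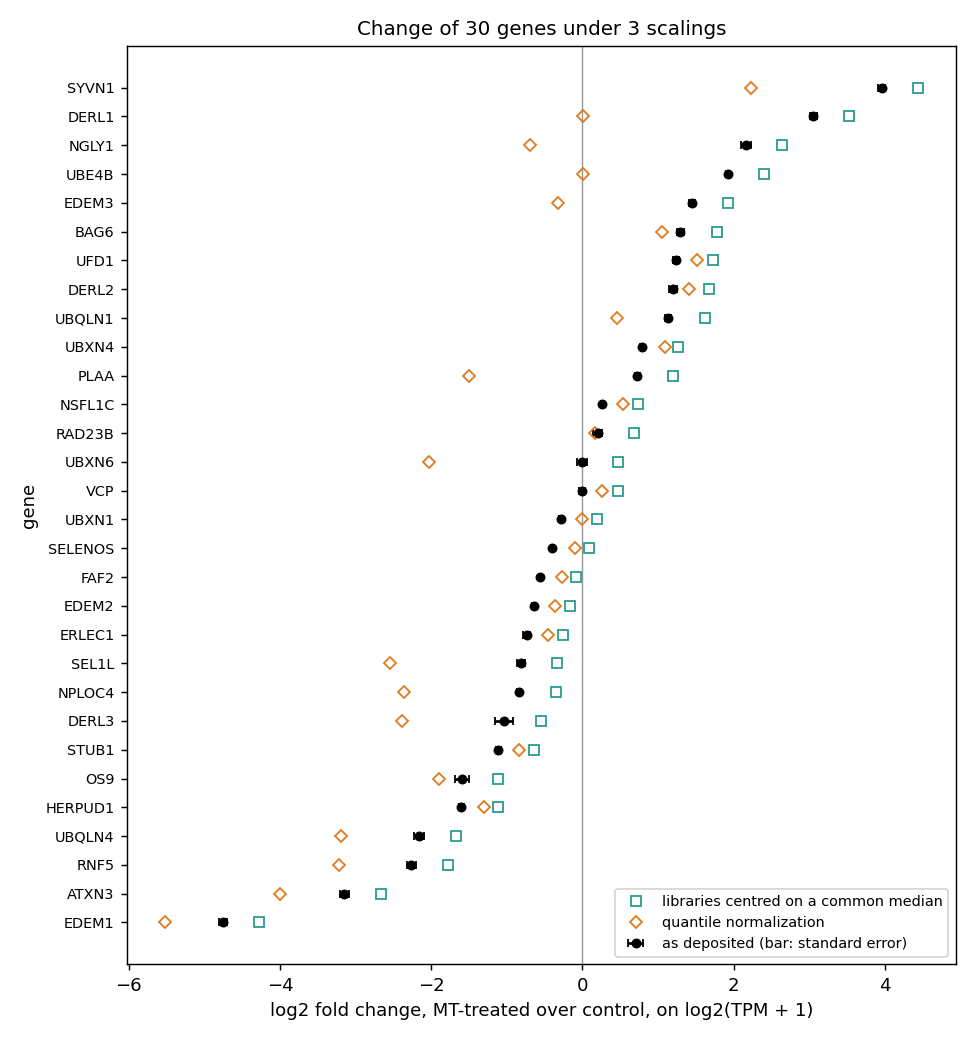
Log2 fold change of MT-treated over control (horizontal axis, on log2(TPM + 1)) for the 30 ERAD genes above 0 in at least 1 library of each group (vertical axis), as deposited with the standard error (filled circles), after centring on a common median (squares) and after quantile normalization (diamonds). EDEM1, ATXN3, RNF5 and UBQLN4 lie below -1 on every scale and UFD1, DERL2, BAG6 and SYVN1 above 1, whereas NGLY1, PLAA and EDEM3 cross 0 under quantile normalization and SELENOS and UBXN1 cross 0 under centring.

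Further genes of the pathway were taken from a list of 91 symbols, of which 86 were listed and 74 tested. Of the 74, 36 were higher and 34 lower, against 61.6% and 34.1% of all tested genes, with a median log2 fold change of 0.07. The change reached 2-fold in 28 of the higher and 18 of the lower, against 51.0% and 19.6%. Of the 36, 21 lay below 1 TPM in each control library and could only be higher. The ubiquitin-conjugating enzyme UBE2J1, which serves SYVN1 in the ER membrane, had 102, 104 and 109 TPM in the control and 10.8, 10.95 and 12.4 TPM with MT (log2 fold change -3.10, or -2.62 after median centring and -4.36 after quantile normalization, adjusted p = 1.79e-08 by limma). Its relative UBE2J2 had 75.6, 76.9 and 74.8 TPM against 25.9, 24.1 and 25.5 TPM (log2 fold change -1.55, adjusted p = 3.12e-08 by limma). UBE2G2, a further conjugating enzyme of the pathway, had 42.3, 42.1 and 41.9 TPM against 40.7, 38.3 and 40.4 TPM, a slight fall (adjusted p = 0.0408 by limma) that was a called rise after centring and after quantile normalization.

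AUP1, which recruits UBE2G2 to the membrane, had 117, 110 and 109.9 TPM against 109, 105 and 109 TPM and was not called (adjusted p = 0.124 by limma), although it was called higher after centring and after quantile normalization. The ligase RNF139 was listed at 0 in each control library and had 4.25, 5.19 and 5.30 TPM with MT.

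HERPUD2, the paralog of HERPUD1, rose from 2.74, 2.65 and 2.73 TPM to 19.6, 17.6 and 19.8 TPM, opposite to HERPUD1 (log2 fold change 2.43, or 1.19 after quantile normalization, adjusted p = 3.30e-08 by limma). UBE4A, the relative of UBE4B, was listed at 0 in each control library and had 15.1, 13.9 and 13.8 TPM with MT. The erlins form a ring in the ER membrane that presents substrates. ERLIN1 had 29.3, 30.2 and 28.7 TPM against 40.3, 39.8 and 40.9 TPM (log2 fold change 0.44, adjusted p = 8.46e-06 by limma), and ERLIN2, which could only be higher, was listed at 0 in the control and had 19.2, 19.4 and 20.3 TPM with MT.

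HSPA5, the main chaperone of the ER lumen and a sensor of its folding load, had 379, 379.5 and 384 TPM against 229.7, 238 and 236 TPM (log2 fold change -0.70, or -0.22 after median centring and -0.56 after quantile normalization, adjusted p = 6.25e-08 by limma). FOXRED2, an ER oxidoreductase of the pathway, had 8.55, 8.34 and 8.98 TPM against 2.72, 2.35 and 2.37 TPM. UGGT1, which tests glycoproteins for proper folding, was listed at 0 in the control and at 0.63, 0.82 and 0.65 TPM with MT, under the level for testing.

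In the wider list the lowest log2 fold changes were those of MAN1A1, a Golgi mannosidase, at -3.96, of UBE2J1, and of UFSP2, a protease of the UFM1 system, at -2.76 (-4.76 for MAN1A1, -4.36 for UBE2J1 and -3.72 for UFSP2 after quantile normalization, adjusted p = 4.73e-09 for MAN1A1 and 5.94e-08 for UFSP2 by limma). After median centring the values were -3.48 for MAN1A1, -2.62 for UBE2J1 and -2.28 for UFSP2. The highest were those of RHBDD1, RNF170 and DNAJB12, each listed at 0 in every control library, so that their values depend on the pseudocount and are not comparable in size with the others. RHBDD1, a rhomboid protease that cuts ERAD substrates, had 28.4, 46.4 and 82.0 TPM with MT, a wide spread among replicates. The ligase RNF170 had 46.2, 46.01 and 47.0 TPM with MT, and DNAJB12, a membrane co-chaperone, had 33.0, 29.7 and 31.1 TPM.

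Some ERAD genes lie over other genes, and reads from an overlap cannot be assigned with certainty where strand was not used in counting, which is not stated in the sources used here. In the RefSeq annotation of ARS-UCD2.0, STUB1 overlaps JMJD8, which had 41.1, 44.3 and 41.7 TPM in the control and 14.0, 14.1 and 14.0 TPM with MT, a fall as for STUB1. BAG6 overlaps APOM, at 0 in the control and 11.3, 10.3 and 10.1 TPM with MT. SYVN1 overlaps MRPL49 and SPDYC, whose levels were also higher with MT, at 16.1, 13.9 and 16.1 TPM and at 5.15, 5.31 and 5.60 TPM. MRPL49 and SPDYC were above 0 in the control too, at 9.79 to 10.7 TPM and 0.53 to 0.79 TPM, where SYVN1 was near 0.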

How the data were processed

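The deposited values are TPM for each gene in each library, given to 2 decimals. Per the study's methods and the submitters' processing notes, reads were checked with FastQC 0.11.9, aligned with STAR 2.7.9a and counted with featureCounts of Subread 1.6.3. The methods give the build as ARS-UCD1.3 and the notes as ARS-UCD1.2, the methods name Smart-seq2 and the labels a TruSeq kit, and how TPM was derived from counts is not given in the sources used here. The authors' own tests used DESeq2 on counts, which TPM does not allow, and no interval for counting error can be given.

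The labels gave the groups and replicate numbers, with 3 control and 3 MT-treated libraries. The ERAD genes and all gene lists were chosen, from general knowledge, with earlier results of these data known, and the 4 roles are a sorting made for this description. Genes reaching 1 TPM in 3 or more libraries entered a linear model of log2(TPM + 1) with trended eBayes (limma 3.58.1, R 4.3.3), with Benjamini-Hochberg adjustment over all of them. Every listed ERAD gene is named, with further pathway genes fixed by role (2 of these are not reported here) and the 3 highest and 3 lowest called of that wider list. Shares and ratios were computed per library (Python 3.11.15, pandas 2.3.3, scipy 1.17.1). The fit was tested on simulated data. Alternatives were quantile normalization, centring on the median, a pseudocount of 0.1, a minimum of 5 TPM or none, no trend, symbols only, a replicate block and each library left out, and, added after seeing the data, only genes above 0 in all 6 libraries. No sequences are shown, since no sequence table was used here.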

Additional observations from a re-analysis of the deposited data

How the results depend on the processing

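Under a replicate block, a pseudocount of 0.1, a minimum of 5 TPM or none, no trend and symbols only, no ERAD gene with a fitted value changed its direction or its call. Both groups were treated within each run, but whether a replicate number marks the same run in both is not stated. Deviations of same-numbered libraries from their group means correlated at -0.011, -0.00068 and 0.059 across genes. With the replicate block 17 ERAD genes were higher and 15 lower, as without it. After median centring 4 log2 fold changes reversed, to 0.082 for SELENOS, 0.19 for UBXN1, 0.47 for VCP and 0.47 for UBXN6. After quantile normalization 4 reversed, to -0.32 for EDEM3, -1.49 for PLAA, -0.69 for NGLY1 and 0.26 for VCP, while DERL1, UBE4B and UBXN1 lost their calls and UBXN6 was called lower at -2.03. Median centring shifts all genes of a library alike, whereas quantile normalization moved genes by different amounts and in both directions, and the cause of these reversals was not tested. With single libraries left out, the uncalled values of VCP (-0.034 to 0.022) and UBXN6 (-0.050 to 0.067) changed sign, and RAD23B lost its call without MT-treated replicate 2. Among genes above 0 in all 6 libraries, a restriction that removes genes, 6440 genes were called in place of 11438, 10 in place of 17 ERAD genes were higher, and 17 in place of 36 of the wider list were higher, while 15 ERAD genes were lower as before, against 40.6% of genes higher and 52.4% lower in that restricted test. The number of reads behind values near 0 is unknown, so a gene listed at 0 may have been present and not counted.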

Other observations

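Genes of the UFM1 system, which attaches the small protein UFM1 to ribosomes at the ER and takes part in ER quality control, were in the wider list and were picked out after their values were seen. UFL1, the ligase of the system, had 111, 112 and 106 TPM in the control and 26.8, 27.4 and 24.5 TPM with MT (log2 fold change -2.02, adjusted p = 4.88e-08 by limma). UFSP2, the protease that removes UFM1, had 24.9, 25.4 and 25.8 TPM against 3.24, 2.92 and 2.56 TPM. Their partner DDRGK1, which holds UFL1 at the ER membrane, was higher, with 42.3, 41.0 and 43.6 TPM against 57.2, 56.7 and 59.9 TPM (log2 fold change 0.45, adjusted p = 2.18e-05 by limma). UFM1 itself was called lower as deposited (log2 fold change -0.33), called higher after median centring (0.15) and not called after quantile normalization (-0.04). UFL1, UFSP2 and DDRGK1 kept their called direction on both of these scales.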
